A study of Mus musculus with 16 samples.

Results

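T cell costimulatory and surface genes were followed through their DNA methylation in B and T cells. The 10 genes (*Cd28*, *Ctla4*, *Icos*, *Cd5*, *Cd6*, *Cd2*, *Cd27*, *Thy1*, *Pdcd1* and *Lag3*) were chosen by name, and all 10 were found among the 21938 protein-coding genes of GENCODE vM21. Whole genome bisulphite sequencing (WGBS) gave 16 libraries from spleens of C57BL/6J mice aged 6 to 8 weeks, for which the labels name no treatment or engineered allele. CD43- B cells, here called B cells, gave 8 libraries and CD4+CD62L+ T cells, a naive population here called T cells, gave 8. Both were isolated by magnetic sorting, and the animals of one sex were pooled, so that no library stands for a single mouse. Within each cell type, 4 libraries were male and 4 female. For each sex, 2 were made by standard bisulphite treatment (BS), which reads 5-methylcytosine and 5-hydroxymethylcytosine alike as methylated, and 2 by oxidative bisulphite treatment (oxBS), in which 5-hydroxymethylcytosine is read as unmethylated. Part of each fragmented DNA sample was oxidised, and the labels do not say which BS and oxBS libraries share DNA. The p-values therefore measure the spread between libraries, which may be technical.

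A naive T cell is activated when its receptor is engaged together with a costimulatory receptor. CD28 delivers the best known costimulatory signal, ICOS is a related receptor that activated T cells carry, and CTLA-4 competes with CD28 for its ligands and restrains the response. CD27, of the tumour necrosis factor receptor family, is a further costimulatory receptor. CD2 binds its partners on other cells and strengthens adhesion. CD5 and CD6 are scavenger receptor family proteins that tune signalling from the T cell receptor, and Thy1 is a small surface protein anchored in the membrane by a lipid, used as a marker of mouse T cells. PD-1, made by *Pdcd1*, and LAG-3 are inhibitory receptors that rise on activated T cells. CpG methylation at promoters and enhancers is commonly low where these elements are active and high where they are silent.

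In mm10 coordinates, the costimulatory and related receptor genes of chromosome 1 were *Cd28* (ENSMUSG00000026012) at chr1:60716800-60773359 on the plus strand, *Ctla4* (ENSMUSG00000026011) at chr1:60887000-60915832 on the plus strand and *Icos* (ENSMUSG00000026009) at chr1:60977927-61000320 on the plus strand. The record of *Ctla4* holds the pseudogene *Rpl18-ps1* and that of *Icos* overlaps *Gm37039*. The scavenger receptor genes were *Cd5* (ENSMUSG00000024669) at chr19:10717116-10739002 on the minus strand and *Cd6* (ENSMUSG00000024670) at chr19:10789341-10830058 on the minus strand. The other surface genes were *Cd2* (ENSMUSG00000027863) at chr3:101275899-101287939 on the minus strand, *Cd27* (ENSMUSG00000030336) at chr6:125232622-125237010 on the minus strand and *Thy1* (ENSMUSG00000032011) at chr9:44043384-44048579 on the plus strand. *Cd27* lies within the record of *Vamp1* and holds *Mir8113*. Further inhibitory receptor genes were *Pdcd1* (ENSMUSG00000026285) at chr1:94038305-94052553 on the minus strand and *Lag3* (ENSMUSG00000030124) at chr6:124904361-124911705 on the minus strand. Levels of overlapping genes share the same CpGs.

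The tiles of 500 bp with the largest difference of each gene held between 3 CpGs (*Cd2*) and 10 CpGs (*Thy1*). Their CpG counts were not compared with those of other tiles. Sequences from 5 of them are given because they show where CpGs behind the levels lie. Each lies in the 500 bp tile with the largest difference of its gene, and the window of 300 bases with the most CpGs outside untranslated regions was taken, read on the strand of the gene from GRCm38. Capitals mark CpGs.
*Cd28* intron, just inside the main transcript, chr1:60746910-60747209, plus strand: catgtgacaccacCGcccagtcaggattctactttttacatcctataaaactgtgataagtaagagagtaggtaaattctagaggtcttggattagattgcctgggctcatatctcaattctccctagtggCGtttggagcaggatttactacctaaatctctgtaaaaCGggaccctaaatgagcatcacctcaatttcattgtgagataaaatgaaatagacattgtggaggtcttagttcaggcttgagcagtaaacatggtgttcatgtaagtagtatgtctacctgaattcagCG
*Icos* intron, also an exon of the overlapping *Gm37039*, chr1:60990494-60990793, plus strand: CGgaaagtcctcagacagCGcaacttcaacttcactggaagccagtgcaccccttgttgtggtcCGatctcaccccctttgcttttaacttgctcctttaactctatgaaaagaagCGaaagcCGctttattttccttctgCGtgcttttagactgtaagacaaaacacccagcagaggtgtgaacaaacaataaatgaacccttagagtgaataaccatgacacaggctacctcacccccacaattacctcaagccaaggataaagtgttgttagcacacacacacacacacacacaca
*Cd2* intron, chr3:101285049-101285348, minus strand: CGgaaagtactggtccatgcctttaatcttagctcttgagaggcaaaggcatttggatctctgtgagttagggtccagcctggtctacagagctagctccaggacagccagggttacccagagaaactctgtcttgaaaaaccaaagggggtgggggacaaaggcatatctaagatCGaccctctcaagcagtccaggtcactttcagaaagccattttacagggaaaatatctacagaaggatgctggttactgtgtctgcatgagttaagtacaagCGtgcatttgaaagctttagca
*Cd5* first kilobase, chr19:10738158-10738457, minus strand: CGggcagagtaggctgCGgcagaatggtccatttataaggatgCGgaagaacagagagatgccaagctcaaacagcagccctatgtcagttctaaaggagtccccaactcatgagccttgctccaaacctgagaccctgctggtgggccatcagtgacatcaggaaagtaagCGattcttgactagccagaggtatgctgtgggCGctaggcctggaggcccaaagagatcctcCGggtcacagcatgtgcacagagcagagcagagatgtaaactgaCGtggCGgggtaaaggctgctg
*Thy1* intron, chr9:44044540-44044839, plus strand: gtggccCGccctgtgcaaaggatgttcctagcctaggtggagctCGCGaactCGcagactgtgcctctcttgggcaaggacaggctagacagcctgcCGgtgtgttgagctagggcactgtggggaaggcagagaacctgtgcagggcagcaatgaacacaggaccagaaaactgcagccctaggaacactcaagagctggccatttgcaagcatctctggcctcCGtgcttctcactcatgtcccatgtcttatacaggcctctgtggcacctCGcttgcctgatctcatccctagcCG
The 250 bases before the *Ctla4* start in RefSeq (GRCm38.p6) are given because the promoter of this gene depends on which start is used.
*Ctla4* promoter, chr1:60908775-60909024, plus strand: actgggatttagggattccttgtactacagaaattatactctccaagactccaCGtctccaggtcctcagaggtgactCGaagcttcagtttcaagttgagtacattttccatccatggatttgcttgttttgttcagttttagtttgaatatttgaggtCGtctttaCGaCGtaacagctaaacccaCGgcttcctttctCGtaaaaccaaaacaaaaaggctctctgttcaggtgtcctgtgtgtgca
Pooled over the 8 libraries of a cell type, single CpGs of the *Cd28* tile were methylated at between 90.2 and 100% in B cells, against 0 to 6.38% in T cells. The *Cd5* tile ran from 86.3 to 98.6% in B cells, against 1.3 to 15.5% in T cells. The *Thy1* tile was less even, with CpGs between 37.9 and 95.2% in B cells, against 0 to 12.1% in T cells. Along the *Ctla4* promoter, CpGs were at 12.1 to 79.1% in B cells, against 0 to 6.98% in T cells.

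B cell libraries held between 5.64 and 7.80 calls per CpG and T cell libraries between 7.06 and 7.76. Methylation over all CpGs was 79.5 to 81.5% in B cells, against 78.5 to 79.7% in T cells. A level is the share of methylated calls in a region, given for libraries with at least 20 calls. A sorted population at an intermediate level can hold cells that are all partly methylated or a mixture, and these cannot be told apart. Known markers differed as the labels name the cells. The promoters of *Cd3d*, *Cd3e* and *Cd3g*, which make chains of the T cell receptor complex, had mean levels of 4.66, 2.63 and 3.84% in T cells and 94.3, 86.5 and 87.3% in B cells. The windows of *Cd3d* and *Cd3g* overlap in part, although each is counted as a marker below. The promoters of the B cell genes *Ms4a1* and *Cd79a* were at 13.6 and 11.7% in B cells, against 94.2 and 76.2% in T cells. In all, 6 of 8 T cell marker promoters were called higher in B cells, whereas 6 of 7 B cell marker promoters were called higher in T cells. Both CD8 T cell markers were also called higher in B cells, as were *Il2ra* of the 2 regulatory T cell markers and *Nkg7* of the 4 natural killer cell markers, and 0 of 4 myeloid and 0 of 3 erythroid marker promoters were called. Over gene bodies, 8 of 8 T cell and 2 of 2 CD8 T cell markers were called higher in B cells, 2 of 7 B cell markers higher in T cells, and none of the other lists. Mean levels of the myeloid promoters lay between 6.79 and 74.2% in B cells, against 6.24 to 65.05% in T cells. Among them *Lyz2* was lower in B cells without overlap, with means of 46.6 and 65.0%, a difference of -18.4 points under the limit for a call. *Fcgr3*, *Itgam* and *Mpo* were higher in B cells, by up to 9.22 points at *Itgam*, with overlapping libraries. The part of other cells in the results below was not tested.

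At promoters, taken as 1 kb either side of the start of the gene record, 6 of the 10 genes were called, all with B cells higher. A region counted as called when the mean levels lay 20 percentage points or more apart and the Benjamini-Hochberg adjusted p was below 0.05. Of all 20775 promoters tested, 1.09% were called, 0.693% with B cells higher and 0.4% with T cells higher. The median B minus T difference was 25.7 points over the 10 genes and 0.57 points over all promoters. At 7 of the 10 promoters no B library overlapped a T library, always with B cells higher. The same held for 3.63% of all promoters, and for 2.36% with B cells higher. The smallest p that the two-sided exact permutation test over libraries can give is 0.000155, and it was reached at all 7. Within BS libraries alone 3 of the 10 and 0.492% of all promoters were called, and within oxBS libraries alone 5 and 0.921%. The calls lost with BS alone were those of *Icos*, *Cd2* and *Pdcd1*. *Icos* was past 20 points in BS (adjusted p = 0.230) and at 41.2 points in oxBS. *Cd2* had 29.8 points in BS (adjusted p = 0.0924) against 36.6 points in oxBS, and *Pdcd1* had 14.3 against 26.9 points. Male libraries alone gave 2 and 0.458%, and female libraries alone 4 and 0.535%. The 1 kb upstream of the start alone gave 2 and 1.58%.

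**Figure D1:**
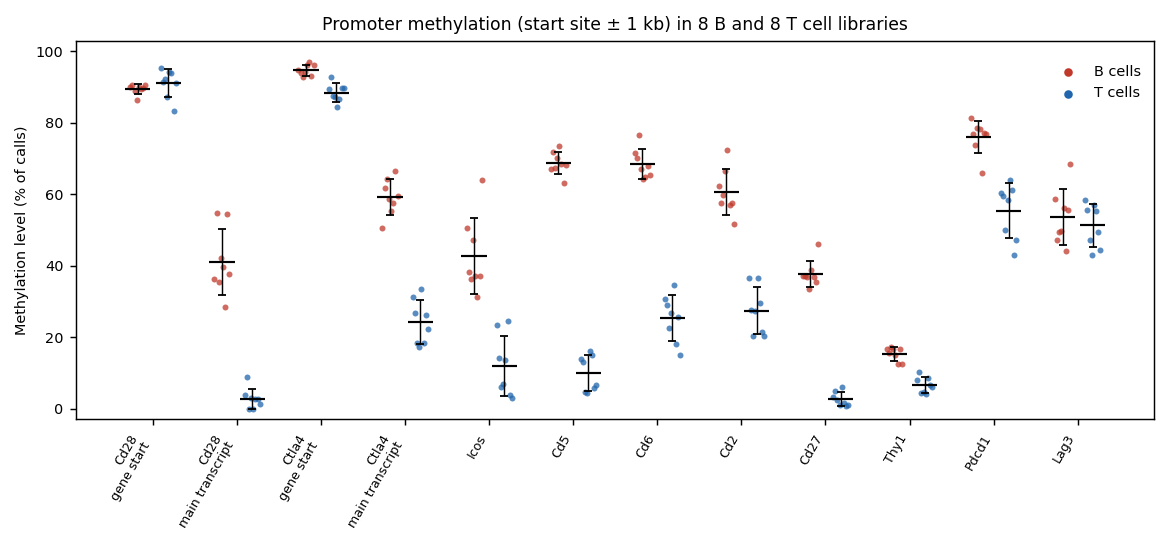
Promoter methylation level in percent of calls (vertical axis) for each gene (horizontal axis). Points are libraries (8 B, red, and 8 T, blue), with the mean (line) and SD (bar). For *Cd28* and *Ctla4* the start of the gene record and that of the main transcript are shown. B cell libraries lie above all T cell libraries at the promoters of *Icos*, *Cd5*, *Cd6*, *Cd2*, *Cd27*, *Thy1* and *Pdcd1*, and at the main transcripts of *Cd28* and *Ctla4*.

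The largest promoter difference was at *Cd5*. Its B cell libraries ran from 63.3 to 73.5% with a median of 68.4%, and its T cell libraries from 4.35 to 16.2% with a median of 9.93%. The means were 68.7% ± 3.13 (SD, n = 8) and 9.98% ± 5.02 (SD, n = 8), a difference of 58.7 points (adjusted p = 1.88e-08). In the 250 bases before the RefSeq start, the 3 CpGs were at 0% in both cell types, each with at least 62 pooled calls in B cells and 80 in T cells, so that the methylation of this window in B cells lay elsewhere in it. The gene *Cd6*, close by on chromosome 19, had 64.3 to 76.6% in B cells (median 67.4%), against 15.1 to 34.6% in T cells (median 26.4%). Its difference was 43.2 points (adjusted p = 1.92e-06). Both genes were thus separated by cell type in every library, although *Cd6* kept more methylation in T cells.

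The costimulatory receptor gene *Cd27* was almost free of promoter methylation in T cells. Its T cell libraries ran from 0.735 to 6.06% (median 2.02%) and its B cell libraries from 33.6 to 46.1% (median 37.0%), a difference of 35.1 points (adjusted p = 2.36e-07). The window lies in an intron of *Vamp1*, whose record spans *Cd27*. The promoter of *Vamp1* itself had means of 0.431% in B cells, against 0.274% in T cells. At *Cd2*, the B cell libraries ran from 51.7 to 72.4% (median 58.8%) and the T cell libraries from 20.3 to 36.6% (median 27.4%), a difference of 33.2 points (adjusted p = 1.58e-05). In the 1 kb upstream of the *Cd2* start alone, the difference was -1.85 points. At *Icos*, B cells ran from 31.3 to 64.0% (median 37.8%) and T cells from 3.06 to 24.6% (median 10.3%), a difference of 30.8 points (adjusted p = 0.00306). *Icos* had the widest spread of the 10 in B cells, with an SD of 10.6 points over a window of 13 CpGs.

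*Pdcd1* and *Lag3* make inhibitory receptors, and of this pair *Pdcd1* was called and *Lag3* was not. *Pdcd1* ran from 66.0 to 81.3% in B cells (median 77.0%), against 43.1 to 64.0% in T cells (median 59.0%). Its difference of 20.6 points (adjusted p = 0.000501) lay just past the limit. Without B library 10 or any one of T libraries 6, 8 and 14, it came to between 18.8 and 19.8 points and was not called. *Lag3* ran from 44.1 to 68.6% in B cells (median 52.6%), against 43.1 to 58.5% in T cells (median 52.4%). Its groups overlapped, and the difference was 2.34 points (adjusted p = 0.709). This mean joins opposite signs, -5.16 points in BS and 9.83 points in oxBS libraries. The interaction of cell type with assay was not called there (adjusted p = 0.445, quasi-binomial model). *Thy1* had a lowly methylated promoter in both cell types, 12.4 to 17.2% in B cells (median 16.1%), against 3.99 to 10.2% in T cells (median 6.34%). The groups did not overlap, but the difference of 8.77 points (adjusted p = 0.000286) was under the limit. With 57 CpGs, this window held more CpGs than that of any other of the 10 genes.

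The results for *Cd28* and *Ctla4* turned on which start was used. The gene records begin 29.6 kb (*Cd28*) and 22.0 kb (*Ctla4*) upstream of the main transcript, taken as the best APPRIS transcript. At the start of its record, *Cd28* was highly methylated in both cell types, with 86.4 to 90.7% in B cells (median 89.8%), against 83.5 to 95.4% in T cells (median 91.8%, adjusted p = 0.364). At its main transcript, the B cell libraries ran from 28.4 to 54.7% (median 38.7%) and the T cell libraries from 0 to 8.79% (median 2.67%). That difference was 38.3 points (adjusted p = 2.74e-05), and the 2 T cell libraries at 0% held at least 52 calls, which allows up to 5.77%. *Ctla4* followed the same order. Its record start had 92.7 to 96.9% in B cells (median 94.6%), against 84.5 to 93.0% in T cells (median 88.5%), a difference of 6.27 points (adjusted p = 0.00724). At its main transcript, the B cell libraries ran from 50.7 to 66.7% (median 59.2%) and the T cell libraries from 17.4 to 33.6% (median 24.3%), a difference of 35 points (adjusted p = 1.70e-05). With starts of main transcripts throughout, 8 of the 10 genes were called, all with B cells higher, against 1.19% of 20784 promoters. Such limits on a level of 0 rest on 3 counts and cover counting error only.

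Over gene bodies, from 1 kb inside the gene record to its end, 5 of the 10 genes were called and all 5 were higher in B cells. For *Cd28* and *Ctla4* the body so taken includes the promoter of the main transcript and sequence upstream of it. Of all 20270 gene bodies, 0.893% were called, 0.76% with B cells higher and 0.133% with T cells higher. The median difference was 20 points over the 10 genes and 0.71 points over all bodies. At *Cd2* the B cell libraries ran from 67.8 to 76.8% (median 72.3%) and the T cell libraries from 6.77 to 18.4% (median 12.6%), a difference of 59.4 points (adjusted p = 2.62e-08). *Cd27* had 72.9 to 78.8% in B cells (median 76.8%), against 9.38 to 27.1% in T cells (median 16.8%), a difference of 58.4 points (adjusted p = 5.40e-08). These short genes were lowly methylated in T cells over most of their length. The interval of *Vamp1* holds the *Cd27* body, and its own body was also called, with means of 73.3 and 47.6%.

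*Thy1*, whose promoter fell short of the limit, was called over its body. Its levels ran from 57.2 to 65.3% in B cells (median 60.8%), against 15.0 to 31.4% in T cells (median 25.1%), a difference of 36.6 points (adjusted p = 5.31e-07). *Cd5* had a difference of 27.7 points, with means of 83.9% ± 1.21 in B cells, against 56.2% ± 8.19 in T cells (SD, n = 8 each). *Cd28* had one of 23.0 points, with means of 88.0% ± 0.486 and 65.0% ± 5.11 (SD, n = 8 each). *Cd6* (17.0 points), *Icos* (16.8 points), *Ctla4* (7.28 points) and *Pdcd1* (3.24 points) were also higher in B cells at adjusted p-values between 1.47e-06 and 0.0118, but under 20 points. These differences were smaller in BS than in oxBS libraries, with 10.5 against 23.5 points at *Cd6*, 11.9 against 21.8 points at *Icos*, 4.21 against 10.3 points at *Ctla4* and 0.72 against 5.75 points at *Pdcd1*. *Lag3* again had no called difference, with 60.6 to 70.3% in B cells, against 58.9 to 69.7% in T cells (adjusted p = 0.589). At 8 of the 10 bodies the groups were free of overlap, all with B cells higher, against 11.9% of all bodies, or 9.43% with B cells higher. The SD between T cell libraries was larger than that between B cell libraries at all 10 genes, and the T cell libraries fell apart by BS and oxBS treatment at 8 of them, as described below. Within BS libraries alone 3 of the 10 and 0.543% of all bodies were called, and within oxBS libraries alone 7 and 1.45%. The calls lost with BS alone were those of *Cd5*, with 19.7 points in BS against 35.6 points in oxBS, and *Cd28*, with 18.2 against 27.8 points.

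Tiles of 500 bp, from 5 kb upstream of the record start to the gene end, showed where the differences lay. Of 532 tiles over the 10 genes, 338 had at least 3 CpGs and enough calls. Of these, 138 were called, 129 with B cells higher and 9 with T cells higher. Among all 1283845 tiles, 3.99% were called, 2.62% with B cells higher and 1.37% with T cells higher. Over the 10 genes, 40.8% of tested tiles were called. BS libraries alone gave 73 called tiles against 1.51% of all tiles, and oxBS libraries alone 111 against 2.32%. Male libraries alone gave 69 against 1.53%, and female libraries alone 89 against 1.54%. The groups were free of overlap in 148 of the 338 tiles, 140 of them with B cells higher, against 4.69% of all tiles and 3.04% with B cells higher. Of the 17970 genes with at least 10 tested tiles, 199 (1.11%) had 30% or more of them called, and 7 of the 10 genes were among those. Introns held 81 called of 172 tested tiles, exons 38 of 96 and the upstream stretch 19 of 70. The same shares over all genes are not given here, so no position can be called favoured. In the 129 tiles called with B cells higher, the median level was 91.2% in B cells, against 32.3% in T cells. Tiles at 20% or less numbered 66 in T cells, 16 in B cells and, of these, 12 in both cell types. Over all 1283845 tiles, 77030 were at 20% or less in T cells, by the mean of their BS and oxBS levels.

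**Figure D2:**
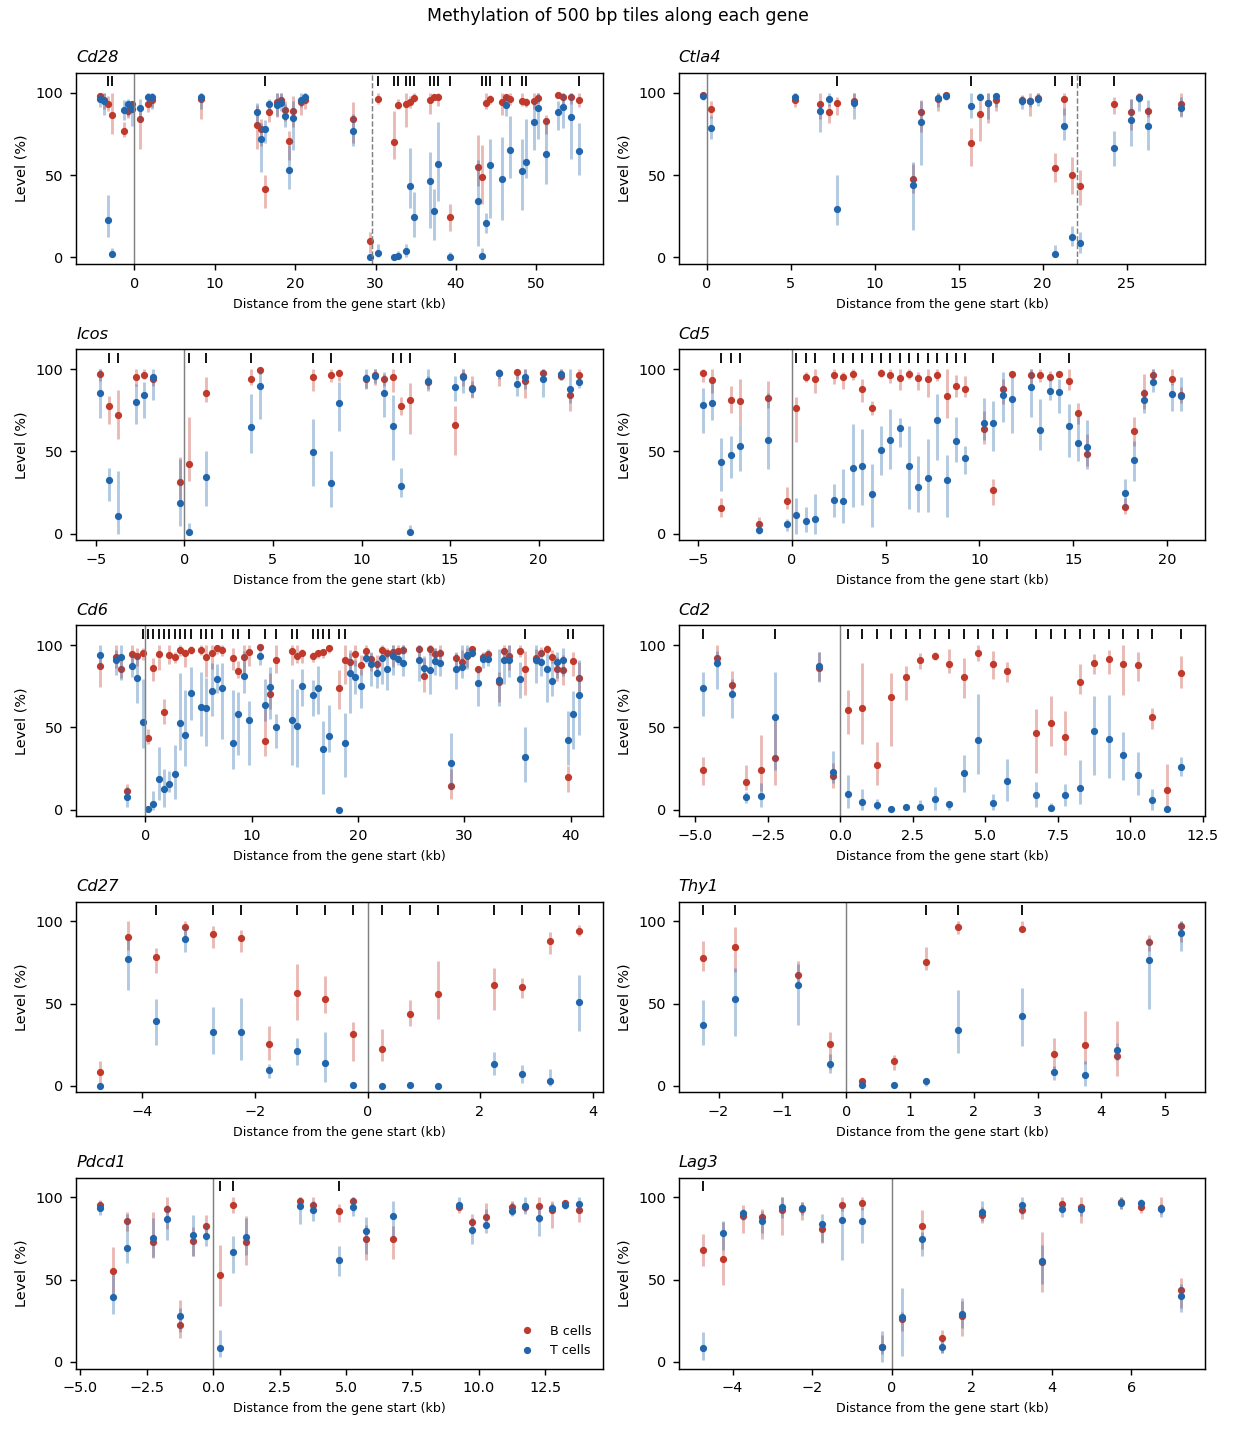
Methylation level in percent (vertical axis) of each tested 500 bp tile against its distance from the start of the gene record in kb (horizontal axis), with 1 panel per gene. Points are means of B (red) and T (blue) cell libraries, bars run from the lowest to the highest library, ticks at the top mark called tiles, solid lines the record start and dashed lines the main transcript start. T cell levels are low over most of *Cd2* and *Cd27* and in tiles near the starts of *Cd5* and *Cd6*. In *Lag3* the means of B and T cells differ by at most 10.9 points from 4 kb upstream onwards.

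*Cd28*, *Ctla4* and *Icos* lie on chromosome 1 in one cluster and were called in 21 of 50, 6 of 27 and 11 of 31 tested tiles. In *Cd28* the called tiles lay mainly beyond the main transcript start. The tile that begins 30 kb from the record start, in an intron (chr1:60746800-60747299), had the largest difference of all 338. Its B cell libraries ran from 93.3 to 100% (median 96.0%) and its 7 informative T cell libraries from 0 to 8.00% (median 0%), a difference of 93.8 points (adjusted p = 3.16e-08). It holds the *Cd28* sequence given above. The T cell libraries at 0% held at least 24 calls, which allows up to 12.5%. Just before it, the tile that begins 29 kb from the record start was lowly methylated in both cell types, at 9.73% in B cells and with 0 of 212 calls methylated in T cells (up to 1.42%). A separate stretch upstream of the whole record was also called: the tiles from 3.5 and 3 kb upstream had 93.5 and 86.6% in B cells, against 22.9 and 2.09% in T cells.

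In *Icos*, the tile that begins 12.5 kb inside the gene had 60.8 to 91.3% in B cells (median 83.8%), against 0 to 5.13% in T cells (median 0%), a difference of 80.4 points (adjusted p = 4.51e-07). In 5 T cell libraries the level was 0%, with at least 55 calls each, which allows up to 5.45%. The tile at the *Icos* start itself had means of 42.4 and 1.15%. In *Ctla4*, the largest difference was 14.5 kb before the main transcript, in an intron of the longer record. That tile had 86.4 to 97.5% in B cells (median 95.5%), against 20 to 50% in its 7 informative T cell libraries (median 24.2%), a difference of 64.5 points (adjusted p = 5.57e-07). One of its 5 CpGs had 6 calls in all, so the level rests on the other 4. Most tested tiles of the *Ctla4* record were highly methylated in both cell types, with medians of 93.2 and 92.4%. The record begins 22 kb before the main transcript, and most of its tested tiles lie before that start.

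*Cd5* had the longest run of called tiles. In this gene, 24 of 43 tested tiles were called, and 15 neighbouring tiles from 2 kb inside the gene, 7.5 kb in all, were called with B cells higher. The tile from 0.5 kb (chr19:10738003-10738502), whose sequence is given above, had 92 to 98.0% in B cells (median 95.2%), against 1.18 to 16.3% in T cells (median 7.09%), a difference of 87.8 points (adjusted p = 5.45e-09). Along the run, T cell means varied between 19.8 and 68.9%, and B cell means between 76.4 and 97.7%. In *Cd6*, 30 of 76 tested tiles were called, and 10 neighbouring tiles from 0.5 kb upstream formed a run of 5 kb. The tile from 0.5 kb inside *Cd6* had 78.1 to 92.3% in B cells (median 87.8%), against 0 to 11.1% in T cells (median 2.17%), a difference of 82.4 points (adjusted p = 2.55e-07). A further tile 18 kb inside *Cd6* was at 74.2% in B cells with 0 of 255 calls methylated in T cells (up to 1.18%).

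*Cd2* and *Cd27* had the largest shares of called tiles, 24 of 31 and 13 of 17. Part of the called *Cd27* tiles lay outside the gene, since their longest run, of 6 tiles, began 1.5 kb upstream. In *Cd2*, 12 neighbouring tiles from the start, 6 kb in all, were called with B cells higher. The tile from 2.5 kb (chr3:101284940-101285439) had 85.7 to 95% in B cells (median 91.3%), against 0 to 5.88% in T cells (median 0%), a difference of 89.7 points (adjusted p = 4.34e-08). It holds only 3 CpGs, and the 6 T cell libraries at 0% had at least 25 calls each, which allows up to 12%. In T cells, 18 of the 31 *Cd2* tiles were at 20% or less. In *Cd27*, the tile from 3 kb, over coding exons, had 80.4 to 93.2% in B cells (median 90.8%), against 0 to 10.1% in T cells (median 2.31%), a difference of 85.2 points (adjusted p = 4.83e-08). The tile that begins at the *Cd27* start had 0 of 509 calls methylated in T cells (up to 0.589%).

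*Thy1* was called in 5 of 14 tested tiles, a pair upstream and 3 that follow from 1 kb inside the gene. The first 2 tiles of the gene had 2.72 and 14.8% in B cells, against 0.207 and 0.777% in T cells. The next one, in an intron (chr9:44044384-44044883), had 70.3 to 84.6% in B cells (median 74.0%), against 0 to 4.63% in T cells (median 3.37%), a difference of 72.6 points (adjusted p = 4.57e-09). B cells were thus highly methylated directly beyond a start that was lowly methylated in both cell types. Tiles from 1.5 and 2.5 kb had 96.6 and 95.6% in B cells, against 34.0 and 42.5% in T cells.

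*Pdcd1* and *Lag3* had the fewest called tiles of the 10 genes, 3 of 26 and 1 of 23. The tile at the *Pdcd1* start had 34.3 to 71% in B cells (median 55.9%), against 2.86 to 19.4% in T cells (median 7.59%), a difference of 44.1 points (adjusted p = 3.41e-05). The called *Lag3* tile lay 5 kb upstream of the gene in an intron of the neighbouring *Ptms* (chr6:124916206-124916705). It had 58.0 to 78.0% in B cells (median 67.3%), against 1.41 to 18.4% in T cells (median 6.35%), a difference of 59.6 points (adjusted p = 5.37e-06). Over the promoter and body of *Ptms* the means were 33.2 and 33.1% in B cells, against 41.8 and 27.3% in T cells, and neither region was called. Within *Lag3* itself no tile was called, and the median tile difference over its window was 0.40 points.

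**Figure D3:**
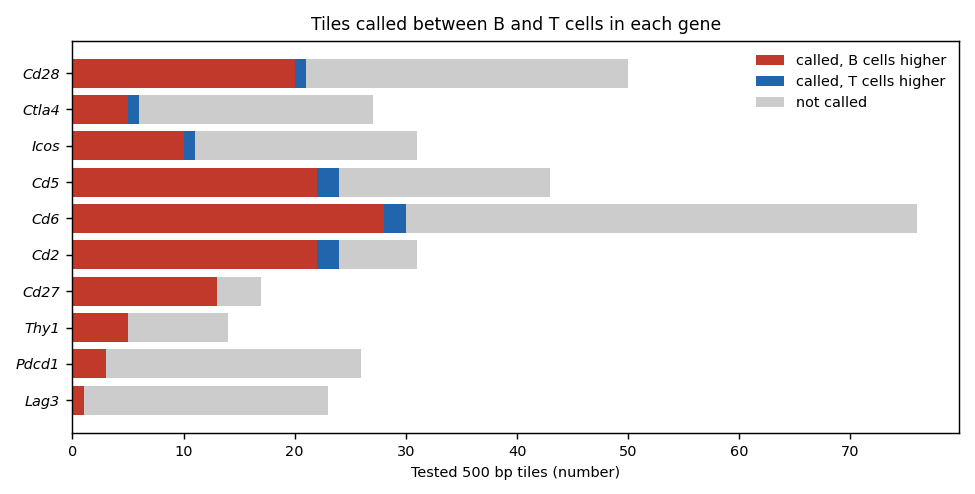
Number of tested 500 bp tiles per gene (horizontal axis), divided into tiles called with B cells higher (red), called with T cells higher (blue) and not called (grey). Among called tiles, those with B cells higher outnumber those with T cells higher in all 10 genes. They number from 1 in *Lag3* to 28 in *Cd6*, and T cells are higher in 9 called tiles of 6 genes.

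The 9 tiles with T cells higher lay in *Cd28*, *Ctla4*, *Icos*, *Cd5*, *Cd6* and *Cd2*, and had a median difference of -25.1 points. The number was unstable: with BS libraries alone 2 tiles were called with T cells higher, and with oxBS, male or female libraries alone 1 each. A limit of 30 points left 3, tiles of 1000 bp gave 2 and a minimum of 40 calls per library gave 5. Over all tiles, the 17650 called with T cells higher became 7528 (BS), 6819 (oxBS), 6237 (male), 6215 (female), 9699 (30 points), 9863 (1000 bp) and 9899 (40 calls). The largest began 5 kb upstream of *Cd2*, between genes, with 15.0 to 31.8% in B cells, against 57.1 to 83.5% in T cells. An intronic tile 10.5 kb inside *Cd5* had 17.1 to 33.3% in B cells, against 50 to 80.6% in T cells. An intronic tile 16 kb from the start of the *Cd28* record had 30.3 to 50% in B cells, against 69.4 to 83.3% in T cells. All 3 were free of overlap between the groups. A pair of the 9, at -2.5 kb from *Cd2* and 11 kb inside *Cd6*, had groups that overlapped.

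BS and oxBS libraries were compared within each cell type. Over gene bodies and tiles this comparison was added after the data had been seen. In T cells, gene body levels were lower after oxidation at 8 of the 10 genes (adjusted p under 0.05), against 25.3% of all 20270 gene bodies called in either direction and 25.2% called with BS higher. In B cells, 0 of the 10 genes and 0 of 20270 bodies were called by the same quasi-binomial test, with 0 of the 10 and 416 of all bodies at an unadjusted p under 0.05. The median BS minus oxBS difference in T cells was 9.48 points over the 10 genes and 1.27 points over all bodies. In B cells it was -0.49 and -0.10 points. The difference between the cell types was itself tested as an interaction on the logit scale, which was called at 8 of the 10 genes and at 16.7% of all bodies. With 1 T cell library left out, between 5 and 7 of the 10 were called in T cells, the 5 without library 8 or library 13, against 15.1 to 15.9% of all bodies.

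**Figure D4:**
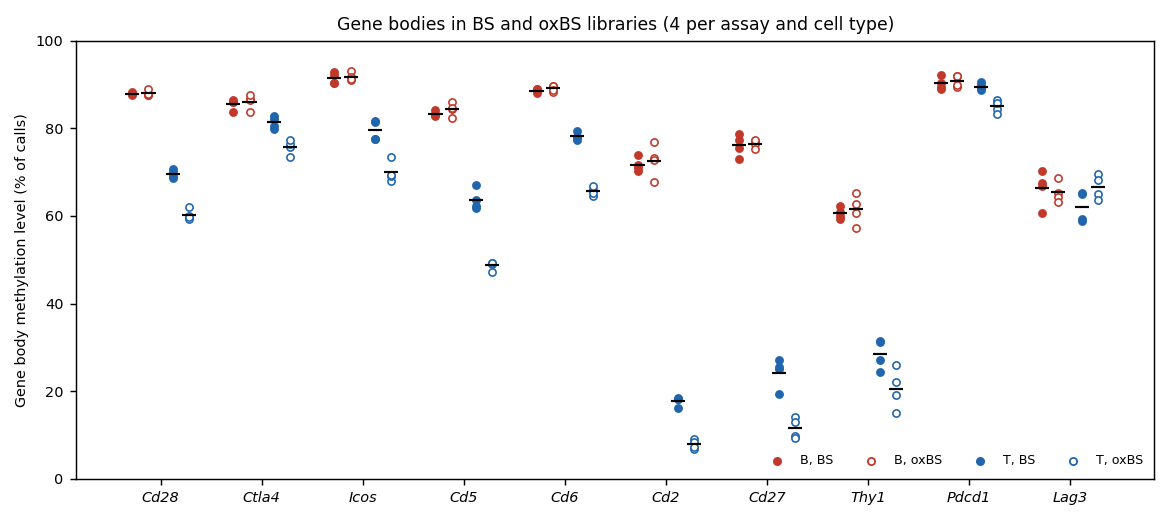
Gene body methylation level in percent of calls (vertical axis) for each gene (horizontal axis) in BS (filled) and oxBS (open) libraries of B (red) and T (blue) cells, 4 libraries each, with lines at the means. BS and oxBS overlap in B cells at all 10 genes, while in T cells the 4 oxBS libraries lie below the 4 BS libraries at 8 genes, as they do at 33.8% of all bodies.

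The largest difference was at *Cd5*, where the T cell BS libraries ran from 61.8 to 67.1% and the oxBS libraries from 47.2 to 49.3%. The difference between means was 15.0 points (adjusted p = 0.00337), against -0.94 points in B cells. In T cells, *Cd27* had 24.2% in BS against 11.5% in oxBS (adjusted p = 0.0158) and *Cd6* 78.1 against 65.6% (adjusted p = 0.00111). At *Cd2*, the T cell BS libraries ran from 16.1 to 18.4% and the oxBS libraries from 6.77 to 8.99% (adjusted p = 0.00182). The oxBS level of *Cd2* was thus under that of every BS library by more than the range within either set. *Icos* (79.6 against 70%), *Cd28* (69.7 against 60.3%), *Ctla4* (81.3 against 75.8%) and *Pdcd1* (89.5 against 85%) were also lower in oxBS, at adjusted p-values between 0.00228 and 0.0276. *Thy1* ran from 24.3 to 31.4% in BS and from 15.0 to 25.9% in oxBS with overlapping libraries (adjusted p = 0.117), and *Lag3* had 62.1% in BS and 66.6% in oxBS (adjusted p = 0.270).

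With 4 libraries against 4, the exact permutation test cannot give less than 0.0286, and it gave this value at the same 8 genes in T cells, unadjusted. The 4 oxBS libraries of T cells lay below the 4 BS libraries at 33.8% of the 20221 bodies with a level in each library. Two-sided exact p-values in B cells were between 0.314 and 0.829, also unadjusted over the 20 comparisons in all. Over all CpGs, T cell libraries had means of 79.6% in BS and 78.7% in oxBS, B cell libraries 80.2 and 80.7%. In male B cell libraries oxBS lay above BS, with 80.7 and 81.5% against 79.9 and 79.5%. Female B cell libraries overlapped, with 79.9 and 80.7% in oxBS against 80.8 and 80.5% in BS. Male BS libraries 1 and 4 of B cells also listed only 242 and 243 positions outside the autosomes, X and Y. Every other library listed 16429 to 17017. The part of this in the comparison of BS with oxBS was not tested. Depth in T cells was 7.14 to 7.76 calls per CpG in BS and 7.06 to 7.47 in oxBS. The efficiencies of conversion and oxidation were not analysed here, and their part in the difference was not tested.

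**Figure D5:**
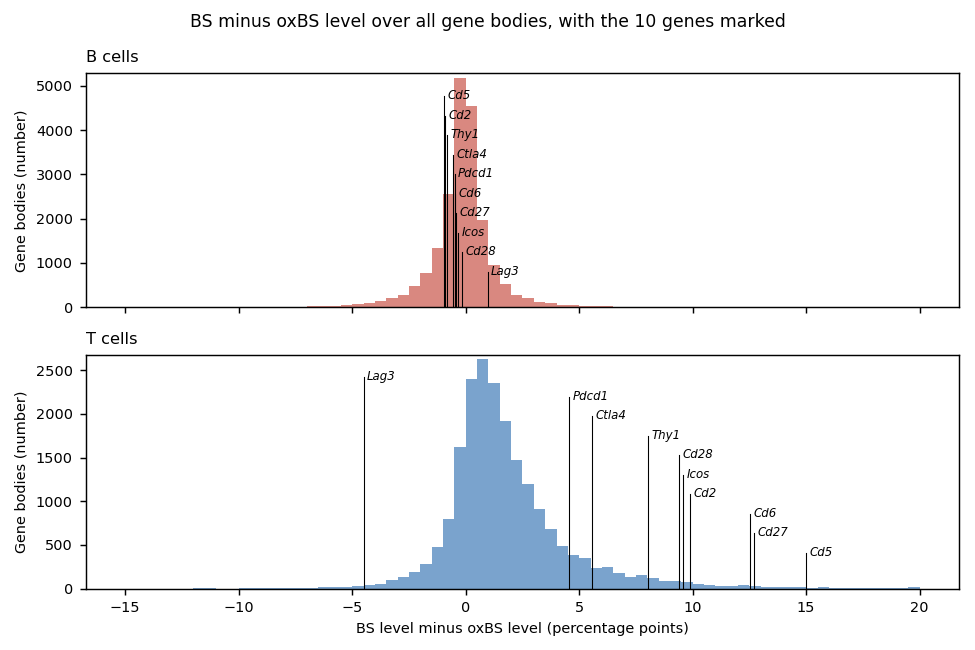
Number of gene bodies (vertical axis) by BS minus oxBS level in percentage points (horizontal axis) in B (top) and T (bottom) cells, in bins of 0.5 points with larger differences gathered in the end bins. Lines mark the 10 genes at heights chosen for legibility. In T cells 9 of the 10 genes lie right of the median of 1.27 points, between 4.54 points (*Pdcd1*) and 15.0 points (*Cd5*), and *Lag3* lies at -4.50 points.

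In single tiles BS and oxBS were not separated by the test: 0 of the 338 tiles and 0 of all 1283845 were called in T cells by the quasi-binomial test, with 132 and 82362 at an unadjusted p under 0.05. Their direction was counted instead. BS was higher in 306 of the 338 tiles in T cells (90.5%), against 66.1% of all tiles, and in 157 of 338 in B cells (46.4%), against 49.3% of all tiles. In *Cd5*, *Cd2* and *Thy1* every tested tile had a higher BS mean in T cells. Among tiles at 20 to 80% in T cells, the median difference was 15.9 points over 135 tiles of the 10 genes and 3.39 points over all such tiles. Among tiles over 80% it was 5.97 and 1.08 points, and among tiles at 20% or less 2.95 and 0.30 points. Neighbouring tiles share libraries and reads and are no replicates. At promoters, 0 of the 10 genes and 0 of 20775 promoters were called between BS and oxBS over all libraries by the same test, with 3 and 1223 at an unadjusted p under 0.05. The interaction with cell type was also called at 0 of 10 and 0 of 20775 promoters, with 4 and 2152 at an unadjusted p under 0.05. Within T cells, *Icos* (18.9 against 5.00%), *Pdcd1* (61.3 against 49.7%), *Lag3* (56.7 against 46.0%), *Cd2* (32.6 against 22.4%) and *Cd5* (14.6 against 5.41%) had oxBS libraries all below their BS libraries, as had 7.66% of 20535 promoters. Each reached the smallest exact permutation p of 0.0286, unadjusted over 20 comparisons. In the quasi-binomial test of T cell libraries alone, 0 of the 10 and 0 of 20812 promoters were called, with 5 and 2008 at an unadjusted p under 0.05.

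Male and female libraries were compared at promoters. There, 0 of the 10 were called between the sexes and 0 were at an unadjusted p under 0.05, against 2.35% of 20775 promoters called by the same test. Male minus female differences within a cell type lay between -5.72 and 4.82 points over promoters and bodies. Over the named tiles, which were not tested for sex, the difference was 12 points at *Ctla4* in T cells, -8.71 points at *Icos* in B cells and -7.60 points at *Pdcd1* in B cells, and smaller at the others. No promoter of the 10 or of all 20775 had a called interaction of cell type with sex, and 0 and 698 were at an unadjusted p under 0.05. The test can miss large differences, since the promoter of the X-linked *Cd40lg* was not called either. Its means were 9.76% in male and 48.5% in female T cells, against 87.1 and 89.5% in B cells.

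The promoters held fewer CpGs than the median promoter, although *Thy1* was close to it, with fewer CpGs in 47.0% of all promoters. Their windows held 13 to 57 CpGs, against a median of 61 over all 21938 promoters, and the ratio of observed to expected CpGs was 0.188 to 0.385, against a median of 0.474. The named tiles were searched on both strands for 4 short motifs that do not match one another. The RUNX motif TGTGGT was found in 1 of the 10 tiles and in 33.3% of all tested tiles of the same length. The TCF/LEF motif, searched as CTTTGA, was found in 3 of the 10 and in 31.0% of all. The ETS family motif with the letters AGGAAG was found in 3 of the 10 and in 48.3% of all. For the GATA family, the letters AGATAA were found in 4 of the 10 and in 23.9% of all. The single TGTGGT match lay in the *Icos* tile, and the *Cd2*, *Thy1*, *Cd5* and *Lag3* tiles held none of these letters. RefSeq promoter sequences were matched for 4 of the 10 genes.

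A list of 41 other costimulatory, inhibitory and surface genes was measured in the same way, of which 40 were matched by symbol. At promoters 7 of 40 were called, all higher in B cells, and at gene bodies 2 of 40, against 1.09% of all promoters and 0.893% of all bodies. Their median promoter difference was 1.79 points, against 0.57 points over all promoters. *Cd40lg*, the T cell ligand that activates B cells through CD40, had the largest promoter difference, with means of 88.3% in B cells, against 29.1% in T cells. This gene is X-linked, and its T cell libraries ran from 1.67 to 15.4% in males and from 43.0 to 53.6% in females. Its body had means of 90.6 and 29.6%. *Tnfrsf4*, a costimulatory receptor of the tumour necrosis factor receptor family known as OX40, had 92 and 47.7%, and *Cd226*, an activating adhesion receptor, had 85 and 43.3%. *Tigit*, *Cd7*, *Cd96* and *Slamf1* were called as well, the last with overlapping libraries. *Cd53*, a tetraspanin, was the other called body, with means of 80.6 and 60.3% and overlapping libraries. Promoters of the ligands *Cd80*, *Cd86* and *Icosl* were not called, with means of 90.9, 12.6 and 5.35% in B cells, against 91.2, 5.11 and 6.96% in T cells.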

How the data were processed

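CpG methylation was analysed in 16 WGBS libraries. The authors trimmed reads with Trim Galore 0.6.0, mapped them to mm10 with Bismark 0.20.0, used SAMtools 1.3.1 and discarded alignments under a MAPQ of 10. What they deposited were counts of unmethylated and methylated calls per CpG, with strands combined and no normalisation. Reads carry no molecular identifiers. Calls per library numbered 123346598 to 170653234 at reference CpGs.

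Calls were summed over promoters, gene bodies and 500 bp tiles. Promoters and bodies needed at least 5 CpGs and tiles at least 3, with 20 calls in 5 libraries of each cell type. Cell type was tested over all features by quasi-binomial logistic regression that included sex and assay, dispersion floored at 1, and Benjamini-Hochberg adjustment. BS was compared with oxBS within a cell type with sex as covariate, and alternatives were run, among them limma 3.58.1. On simulated promoters, 50 of 50 differences of 30 points and 27 of 50 of 20 points were called. These differences were placed only in highly methylated promoters, so the share called at low or intermediate levels was not measured. On simulated bodies in T cells, 4 of 50 assay differences of 3 points were called, 13 of 50 of 5 points, 32 of 50 of 10 points and 39 of 50 of 15 points. In that simulation 20070 of 20270 bodies held no difference, whereas 5119 bodies were called in the data. The adjustment is stricter where fewer bodies differ, so these shares do not give the rate of detection in the data. Pairs of same-type libraries held identical counts at 63 to 188 promoters. No pair was identical throughout (mean chi-square per promoter 2.39 to 6.05 over 56 pairs), and each library was counted once. Calls of one read are not independent, so this does not tell repeat libraries of one DNA pool from separate samples.

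Named genes were the 10, the tile with the largest called difference of each, the 3 largest called promoters and bodies of the lists, and overlapping genes, of which 1 marker gene is not reported here. *Cd86*, *Cd80*, *Icosl* and the myeloid markers were named after their values were seen, as were the remaining called promoters. The members and lists were chosen with earlier results of these data known. Scripts ran in Python 3.11.15 (pandas 2.3.3, SciPy 1.17.1, NumPy 2.4.6).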

Additional observations from a re-analysis of the deposited data

Results flagged for a closer look

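Of 60 sets of 7 or 8 libraries (promoter, gene body and named tile of each gene in each cell type), 5 held a library far from the others. At its nominal level the rule flags about 1 set in 20 by chance, a rate not estimated from these data. At the *Cd28* promoter, female oxBS library 9 of B cells was at 86.4% and the others at 88.8 to 90.7%. At the *Cd27* promoter, male oxBS library 3 of B cells was at 46.1% and the others at 33.6 to 38.8%. At the *Cd28* gene body, the same library was at 89.1% and the others at 87.6 to 88.3%. At the *Icos* tile, male BS library 7 of T cells was at 5.13% and the others at 0 to 1.61%. At the *Pdcd1* tile, male BS library 5 of T cells was at 19.4% and the others at 2.86 to 10.7%.

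The BS minus oxBS difference in gene bodies was larger in T than in B cells at 8 genes, by the test of the interaction. In percentage points, T minus B, the values were 9.57 (*Cd28*), 6.13 (*Ctla4*), 9.90 (*Icos*), 15.9 (*Cd5*), 13 (*Cd6*), 10.8 (*Cd2*), 13.1 (*Cd27*) and 5.03 (*Pdcd1*). Adjusted p-values of the quasi-binomial model ran from 9.51e-05 (*Cd6*) to 0.0385 (*Pdcd1*).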

How the results depend on the processing

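Called promoters of the 10 genes numbered 6 and gave 3 with BS alone, 2 with male libraries alone and 2 with only the 1 kb upstream of the start. Leaving out each library gave 5 to 6, against 1.05 to 1.15% of all promoters, *Pdcd1* being lost without B cell library 10 or T cell libraries 6, 8 or 14. Called bodies numbered 5 and gave 3 with a limit of 30 points (0.321% of all bodies) and 3 with BS alone, and 5 whichever library was left out (0.819 to 0.987% of all bodies). Called tiles numbered 138 of 338 tested and gave 73 of 321 with BS alone, 69 of 318 with male libraries, 89 of 325 with female libraries and 66 of 166 with at least 40 calls per library, where 4.05% of all tiles were called. Fits of one assay or sex hold 8 of the 16 libraries, and the 40-call setting tests fewer tiles. For the other settings the cause was not tested.

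Body differences between BS and oxBS in T cells were called at 8 genes and at 5 to 7 with a library left out, with 5 without T cell library 8 or 13. The interaction gave 6 to 8, against 11.1 to 18.4% of all bodies. Without the dispersion floor, 2 tiles were called between BS and oxBS in T cells, against 2359 of all 1354524 tiles.

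Directions turned in 7 cases. The *Cd28* promoter, at -1.72 points, became 0.329 with oxBS alone, 2.92 with 500 bp either side and 38.3 at the main transcript. The *Cd2* promoter became -1.85 with the upstream 1 kb only. The *Lag3* promoter became -5.16 with BS alone, and its body -1.22 with oxBS alone and -0.291 with limma on mean CpG fractions. Tiles called with T cells higher, 9 in all, numbered 1 to 5 in the settings given beside them. The other settings run left the counts of called promoters, bodies and tiles of the 10 genes within 1.5 times. No paired analysis was possible because the labels number the libraries from 1 to 16 and no number is shared between groups. Depth limits single CpGs, which had few calls per library, and differences between B and T cells under 20 points were not counted. The comparisons of BS with oxBS over bodies and tiles and their alternatives were chosen after seeing the data.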
